A study of Rattus norvegicus with 10 samples.

Results

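MicroRNAs (miRNAs) that are known from white blood cells and inflammation were examined in the rat left ventricle after an infusion of dexmedetomidine (DEX). The 9 miRNAs were chosen by name as immune cell miRNAs. They were both arms of miR-155 and of miR-142, with rno-miR-146a-5p, rno-miR-146b-5p, rno-miR-150-5p, rno-miR-223-3p and rno-miR-511-5p, out of 761 miRNAs on the chip. All 9 were detected on every array and were among the 503 miRNAs tested. Male Wistar rats received saline (the Control group) or the alpha2 agonist DEX, used for sedation, by infusion over 30 min. Each group held 5 arrays, each from the left ventricle of a separate rat that per the methods had not been made ischemic. The comparison asks whether these miRNAs differ in abundance in the heart directly after the drug. The tissue was taken whole, so that a lower signal from fewer white blood cells cannot be told apart from a lower signal per cell.

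A miRNA is cut from a hairpin precursor, and either arm of the hairpin, named 5p or 3p, can be loaded into an Argonaute protein. The loaded strand pairs with messenger RNAs mainly through its seed and lowers their translation and stability. miR-155 is made from the Mir155hg transcript and is known for its induction in activated macrophages and lymphocytes. miR-146a and miR-146b are induced by NF-kB signaling and act back on it through Traf6 and Irak1. miR-223 is a miRNA of neutrophils and other myeloid cells, miR-142 is found across blood cell lineages, miR-150 is abundant in mature lymphocytes, and miR-511 is encoded in the gene of the macrophage mannose receptor, Mrc1.

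The mature sequences show which of these miRNAs can pair with the same targets. RefSeq (build GRCr8) held 8 of the 9, and rno-miR-150-5p was not matched. They are written 5′ to 3′ with the seed, bases 2 to 8, in capitals.
rno-miR-155-5p: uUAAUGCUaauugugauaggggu
rno-miR-155-3p: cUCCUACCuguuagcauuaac
rno-miR-146a-5p: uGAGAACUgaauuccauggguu
rno-miR-146b-5p: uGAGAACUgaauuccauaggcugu
rno-miR-223-3p: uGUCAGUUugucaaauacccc
rno-miR-142-3p: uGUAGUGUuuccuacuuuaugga
rno-miR-142-5p: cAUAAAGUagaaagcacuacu
rno-miR-511-5p: cAUGCCUUuugcucugcacuc
The seeds sort them into 7 groups, because rno-miR-146a-5p and rno-miR-146b-5p share one. The arms of miR-155 have different seeds, and so do the arms of miR-142. Over the 22 bases that both miR-146 sequences have, 20 are identical. They differ by G18A and U21C, with rno-miR-146a-5p given first and positions counted from its 5′ end, and rno-miR-146b-5p has 2 more bases at its 3′ end. The seed of rno-miR-511-5p is also that of rno-miR-532-5p, and no other mature rat sequence in the table has a seed of the remaining 5. The GC content runs from 33.3% in rno-miR-142-5p to 52.4% in rno-miR-511-5p.

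The hairpins lie apart in the genome, except that the arms of one hairpin share it. Mir155 is at chr11:37261114-37261178 on the plus strand, within the long non-coding RNA gene Mir155hg. Mir142 is at chr10:73055104-73055190 on the plus strand, within the span of the protein-coding gene Tspoap1. Mir146a is at chr10:28349996-28350090 on the minus strand, inside an uncharacterized long non-coding RNA gene. Mir146b is at chr1:255144860-255144947 on the plus strand, within the span of the protein-coding gene C1h10orf95. Mir223 is at chrX:65151383-65151492 on the plus strand, also inside an uncharacterized long non-coding RNA gene, and Mir511 is at chr17:82187953-82188031 on the plus strand within the span of Mrc1. The miR-155 hairpin is printed here with both mature arms in capitals, because its arms are compared in detail.
Mir155 hairpin: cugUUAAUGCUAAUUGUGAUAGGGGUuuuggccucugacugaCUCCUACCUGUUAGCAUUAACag

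Signals are normalized values, in arbitrary units, of a one-colour chip on which each array's median over its detected miRNAs was set to 25. The lowest detected value of an array, between 3.64 and 5.09, is called its floor. Probes differ in affinity, so levels of different miRNAs are not compared. The arrays lay on 3 slides. Control 1 to Control 4 were on slide 1, Control 5 shared slide 2 with DEX 1 to DEX 3, and DEX 4 and DEX 5 were on slide 3. Slide and group therefore cannot be told apart except on slide 2, where 1 Control array stands against 3 DEX arrays. The median signal over blank before scaling was 35.4 to 52.0 on the Control arrays and 43.1 to 53.5 on DEX 2 to DEX 5, and DEX 1 was dimmer at 17.3. With so few arrays, precision is limited throughout.

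In mean log2 signal, 7 of the 9 immune cell miRNAs were higher in DEX and 2 were lower. The median log2 difference (DEX minus Control) was 0.13 over the 9, beside 0.044 over all 503 tested miRNAs, of which 298 were higher and 205 lower. None of the 9 differed at an adjusted p under 0.05 in limma, and 0% of the tested miRNAs did. At an unadjusted p under 0.05 there were 2 of the 9, rno-miR-155-3p and rno-miR-511-5p, both lower in DEX, where 2.98% of all tested miRNAs (15) were called. The DEX and Control arrays did not overlap for 1 of the 9, rno-miR-155-3p. Among all tested miRNAs 0.596% did not overlap in either direction, and 0.398% had every DEX array below every Control array. The methods' t-test, at their threshold and 1.5-fold, called 8 tested miRNAs. Of the 9, it called rno-miR-155-3p and rno-miR-511-5p, and after Benjamini-Hochberg adjustment it called 0. These calls were made on the log2 signals used here and differ from the published list. That list is shorter and holds rno-miR-155-3p but not rno-miR-511-5p.

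**Figure D1:**
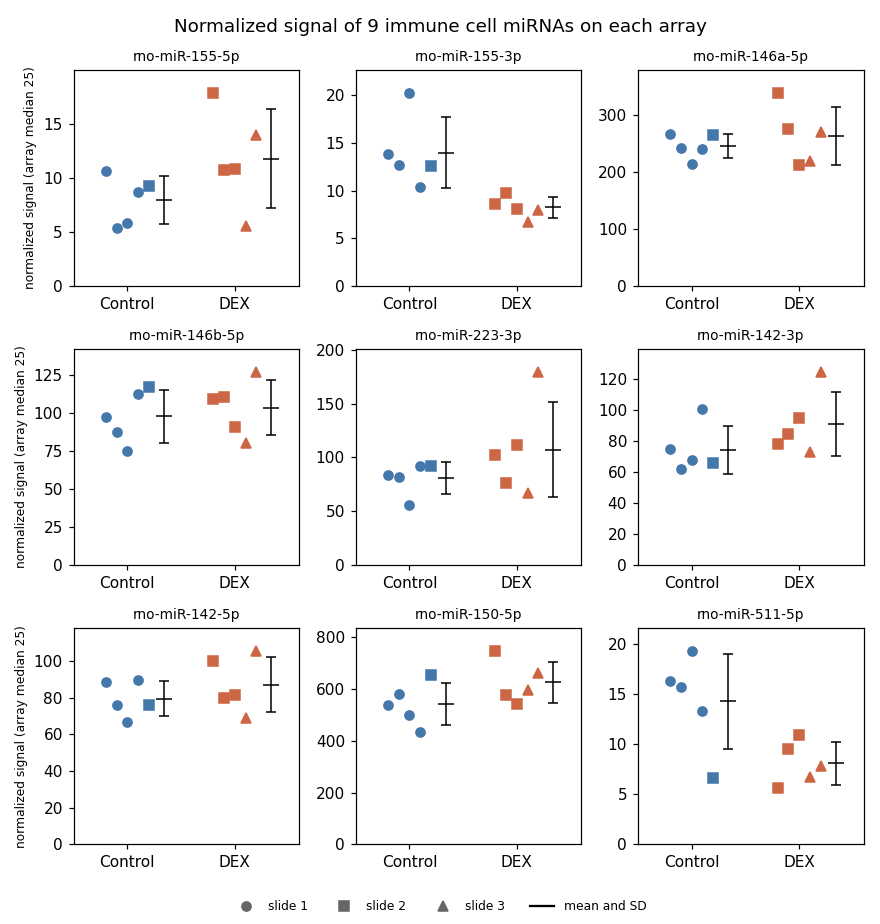
Normalized signal (vertical axis, arbitrary units, array median 25) of each immune cell miRNA on the 5 Control and 5 DEX arrays, with a point per array, the slide as its shape, and the mean with SD beside each group. Only rno-miR-155-3p has groups that do not overlap, and for rno-miR-511-5p the lone Control array of slide 2 sits among the DEX arrays.

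The 3p arm of miR-155 had the clearest separation of the groups. Rno-miR-155-3p (MIMAT0030410) had a normalized signal of 13.8, 12.7, 20.2, 10.4 and 12.6 on Control 1 to Control 5, and of 8.63, 9.77, 8.06, 6.73 and 7.997 on DEX 1 to DEX 5. Every DEX array was below every Control array, and Control 3 was the highest of all. The mean was 13.9 ± 3.72 in the Control group and 8.24 ± 1.10 in the DEX group (SD, n = 5 each). On log2 signal, the exact permutation test gave p = 0.00794. That is the smallest p this design allows. The log2 difference was -0.73 ± 0.18 (SE), with a 95% interval of -1.13 to -0.34 and an unadjusted limma p of 0.00149, which ranked 3 of 503 from the lowest, but the limma adjusted p was 0.249. After adjustment over all tested miRNAs the exact permutation test gave 0.897. With this design a single miRNA at the smallest p could not pass that adjustment, so the adjusted value decides nothing. This miRNA is on the study's own list from these same arrays, so its values are a description and not independent evidence of its direction.

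The separation of rno-miR-155-3p was present on slide 2, in smaller size. Control 5 had 12.6 there, against 8.06 to 9.77 on DEX 1 to DEX 3, a log2 difference of -0.52. Control 5 also lay above all DEX arrays of slide 2 for 43.7% of the 501 miRNAs without a missing spot. With slide as a fixed term, the limma unadjusted p was 0.157 for the same difference. The 4 Control arrays of slide 1 had 14.3 ± 4.21 (SD), and the DEX arrays of slide 3 had 6.73 and 7.997. The spots were dim, at 1.44 times the floor of the array or more, with a median of 2.70 times. Where blanks were not subtracted the log2 difference shrank to -0.071, and with normexp and an offset of 50 it was -0.064 (limma unadjusted p = 0.0880 and 0.568).

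The 5p arm of the same hairpin pointed the other way, without passing the test. Rno-miR-155-5p (MIMAT0030409), the arm usually described as the functional strand, had 10.6, 5.40, 5.84, 8.68 and 9.24 on Control 1 to Control 5. On DEX 1 to DEX 5 it had 17.8, 10.7, 10.8, 5.51 and 13.9. DEX 4 lay at the bottom of the Control range and the other 4 DEX arrays lay above it. The log2 difference was 0.51 ± 0.29 (SE), with a 95% interval of -0.12 to 1.15 (limma adjusted p = 0.905). DEX 1, the dim array, was the highest, and without it the log2 difference was 0.34. Without DEX 4 it was 0.76, with an unadjusted limma p of 0.00852. On slide 2 the log2 difference was 0.46. Without slide 3, which holds DEX 4, it was 0.73 (limma unadjusted p = 0.0215). With normexp and an offset of 50 it shrank to 0.072, and without blank subtraction to 0.062. These spots too were near the floor, at 1.18 times it or more.

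The arms were then compared within each array, where the scaling between arrays cancels. For miR-155 the log2 signal of the 3p probe minus that of the 5p probe was 0.39, 1.23, 1.79, 0.26 and 0.44 on Control 1 to Control 5. On DEX 1 to DEX 5 it was -1.05, -0.13, -0.43, 0.29 and -0.80. The groups overlapped only at one point, where DEX 4 lay just above Control 4. The group difference was -1.25 ± 0.34 (SE) on the log2 scale, with a 95% interval of -1.99 to -0.50. It ranked second by unadjusted p among 134 hairpins with both arms tested (limma unadjusted p = 0.00353), and 1 hairpin had a more negative difference. The adjusted p in limma was 0.220, and 0% of the 134 hairpins passed 0.05. At an unadjusted p under 0.05 there were 8 (5.97%), and for 1.49% the groups did not overlap. Within slide 2 the difference was -0.98, with an unadjusted limma p of 0.165 with slide as a fixed term and of 0.0858 on slide 2 alone. Since the 3p arm was known to be on the study's list, the arm difference is not independent of that choice. Without blank subtraction it was -0.13, and with normexp and an offset of 50 it was -0.14.

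The arms of miR-142, the other hairpin with both arms among the 9, did not separate in this way. The 3p minus 5p value ran from -0.30 to 0.17 on the Control arrays and from -0.35 to 0.24 on the DEX arrays. Its group difference was 0.17 ± 0.16 (SE), with a 95% interval of -0.19 to 0.52 (limma adjusted p = 0.863). For miR-511 the value was 0.84 ± 0.51 (limma adjusted p = 0.828). It turned to -0.96 within slide 2, and leaving out 1 array moved it between 0.60 (without Control 3) and 1.26 (without Control 5, limma unadjusted p = 0.0111). For miR-150 it was -0.056 ± 0.26 (limma adjusted p = 0.992).

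**Figure D2:**
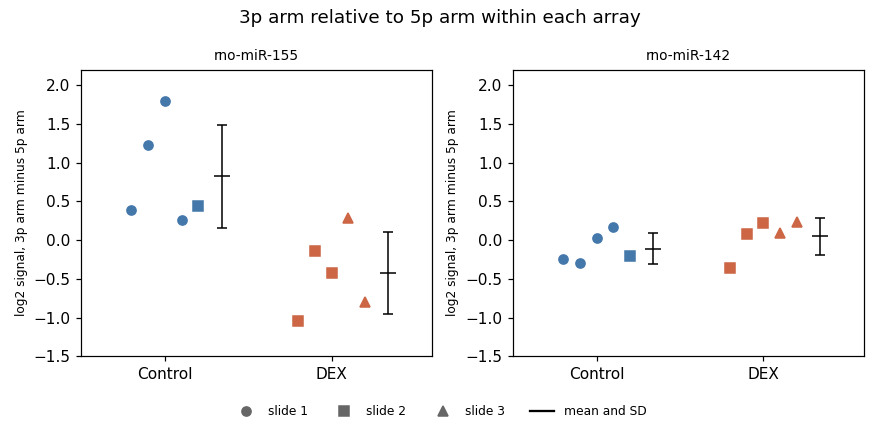
Log2 signal of the 3p probe minus that of the 5p probe (vertical axis) on each array for miR-155 (left) and miR-142 (right), with a point per array, the slide as its shape, and the mean with SD. The miR-155 values run from 0.26 to 1.79 in Control and from -1.05 to 0.29 in DEX, while those of miR-142 overlap widely. The height of a point depends on the affinity of both probes, so only the group difference can be read.

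Rno-miR-511-5p, a miRNA of macrophages, had the largest log2 difference of the 9 in size, and its highest arrays were those of slide 1. Rno-miR-511-5p (MIMAT0012829) had a normalized signal of 16.3, 15.8, 19.3, 13.4 and 6.68 on Control 1 to Control 5. On DEX 1 to DEX 5 it had 5.64, 9.58, 10.96, 6.71 and 7.82. The 4 Control arrays of slide 1 were above all others, and Control 5 lay within the DEX range. The log2 difference was -0.77 ± 0.28 (SE), with a 95% interval of -1.37 to -0.17 (limma unadjusted p = 0.0160, adjusted p = 0.806). The exact permutation test gave p = 0.0476 unadjusted and 0.897 adjusted, an adjustment that a single miRNA could not pass with this design. Within slide 2 the direction turned, with 6.68 on Control 5 against 5.64 to 10.96 on DEX 1 to DEX 3 and a log2 difference of 0.33. Without Control 5 the log2 difference was -1.02 (limma unadjusted p = 0.000401, adjusted p = 0.126). With normexp and an offset of 50 the difference shrank to -0.015 and without blank subtraction to -0.075 (limma unadjusted p = 0.841 and 0.0598).

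All slide 1 arrays were above all other arrays for 5 of these 501 miRNAs (0.998%), and rno-miR-511-5p was the only one of the 9 among them. Its nearest neighbour over the 10 arrays, rno-miR-122-3p, had the same pattern. That neighbour was picked by its correlation on these same arrays, so the shared pattern is not separate evidence. Rno-miR-122-3p had 14.3 to 16.1 on the Control arrays of slide 1, 6.39 on Control 5 and 7.38 to 12.2 on the DEX arrays. The part of the slide in the difference of rno-miR-511-5p cannot be told apart from that of the drug outside slide 2. The other arm, rno-miR-511-3p, had 5.18 to 15.7 in Control and 6.65 to 11.7 in DEX, with a log2 difference of 0.068 (limma adjusted p = 0.955).

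**Figure D3:**
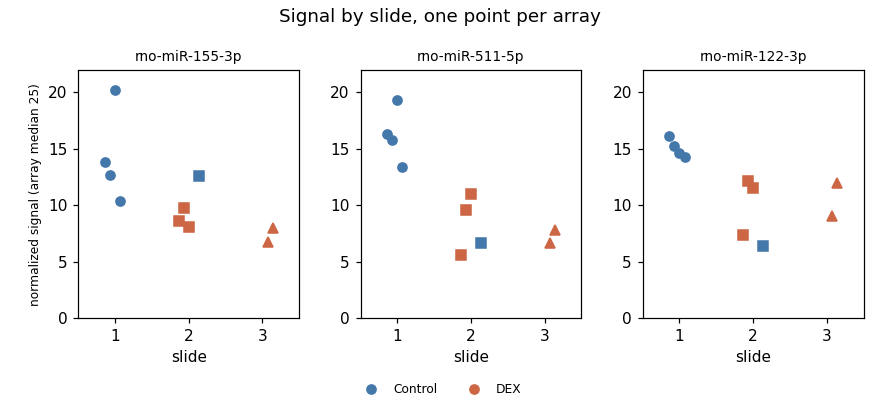
Normalized signal (vertical axis, arbitrary units) of rno-miR-155-3p, rno-miR-511-5p and rno-miR-122-3p on slides 1, 2 and 3 (horizontal axis), with a point per array coloured by group. On slide 2 the Control array is above the 3 DEX arrays for rno-miR-155-3p only, and all 4 slide 1 arrays are above the other 6 for rno-miR-511-5p and rno-miR-122-3p. Rno-miR-122-3p is shown because its signal correlated most closely with that of rno-miR-511-5p on these arrays.

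The miR-146 pair, whose seeds are the same, stood close to the median of all miRNAs. Rno-miR-146a-5p (MIMAT0000852) had 267, 242, 215, 241 and 264 in Control and 339, 275, 211, 219 and 270 in DEX. DEX 1, the dim array, DEX 2 and DEX 5 lay above the Control range, and DEX 3 lay below it. Its log2 difference was 0.080 ± 0.15 (SE), with a 95% interval of -0.26 to 0.41 (limma adjusted p = 0.914). Without DEX 1 it was -0.017. Rno-miR-146b-5p (MIMAT0005595) had 97.3, 88.0, 75.3, 113 and 117 in Control and 110, 111, 91.2, 80.3 and 127 in DEX. Its log2 difference was 0.082 ± 0.17 (SE), with a 95% interval of -0.29 to 0.45 (limma adjusted p = 0.926). It turned to -0.0092 without Control 3 and to -0.18 within slide 2. The value of rno-miR-146a-5p depended on the background correction, since with normexp and an offset of 50 its log2 difference was 0.66 (limma unadjusted p = 0.0934, adjusted p = 0.997).

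The myeloid miRNA rno-miR-223-3p varied widely between arrays of a group for its brightness. Rno-miR-223-3p (MIMAT0000892) had 84.2, 81.7, 55.8, 91.8 and 92.3 on Control 1 to Control 5. On DEX 1 to DEX 5 it had 103, 76.1, 112, 66.9 and 179. DEX 2 and DEX 4 lay below 4 of the 5 Control arrays, and DEX 5 was the highest of all. Its SD within groups was 0.44 on the log2 scale, which ranked 167 of 168 (from low to high) among the brightest 168 tested miRNAs, whose median SD was 0.22. The log2 difference was 0.34 ± 0.25 (SE), with a 95% interval of -0.21 to 0.88 (limma adjusted p = 0.905). Without DEX 5 it was 0.13, without Control 3 it was 0.21, and within slide 2 it was 0.049. With normexp and an offset of 50 it was 0.16, and without blank subtraction it was 0.15.

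Both arms of miR-142 had higher means in DEX, within the spread between replicates. Rno-miR-142-3p (MIMAT0000848) had 74.6, 61.9, 67.6, 101 and 66.0 in Control and 78.2, 84.3, 94.8, 73.1 and 124 in DEX. Except for Control 4, the Control arrays lay below all DEX arrays but DEX 4, and DEX 5 was the highest array. The log2 difference was 0.29 ± 0.18 (SE), with a 95% interval of -0.11 to 0.69 (limma adjusted p = 0.905). It was 0.17 without DEX 5 and 0.37 within slide 2. With normexp and an offset of 50 it was 0.037, and without blank subtraction it was 0.11. Without Control 4 its unadjusted limma p was 0.0399 (adjusted p = 0.962). Rno-miR-142-5p (MIMAT0000847) had 88.6, 76.2, 66.6, 89.6 and 76.2 in Control and 100, 80.0, 81.6, 68.9 and 105 in DEX. Its log2 difference was 0.13 ± 0.16 (SE), with a 95% interval of -0.21 to 0.46 (limma adjusted p = 0.905), and within slide 2 it was 0.19. Leaving out 1 array at a time moved it between 0.053 (without DEX 5) and 0.21 (without DEX 4).

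The lymphocyte miRNA rno-miR-150-5p (MIMAT0000853) had a normalized signal of 540, 581, 500, 435 and 655 in Control. In DEX it had 746, 578, 544, 596 and 664. DEX 1 and DEX 5 lay above all Control arrays, and Control 5 was close to DEX 5. The log2 difference was 0.21 ± 0.15 (SE), with a 95% interval of -0.12 to 0.54 (limma adjusted p = 0.905). It was 0.13 without Control 4, and within slide 2 it turned to -0.086. With normexp and an offset of 50 it was 0.67 (limma unadjusted p = 0.196), and without blank subtraction it was 0.10. With the authors' value table and with scaling on the miRNAs detected on all arrays it was 0.23, and its unadjusted limma p was then 0.0324 and 0.0330. Both settings scale on the same miRNAs, so they are not separate checks.

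**Figure D4:**
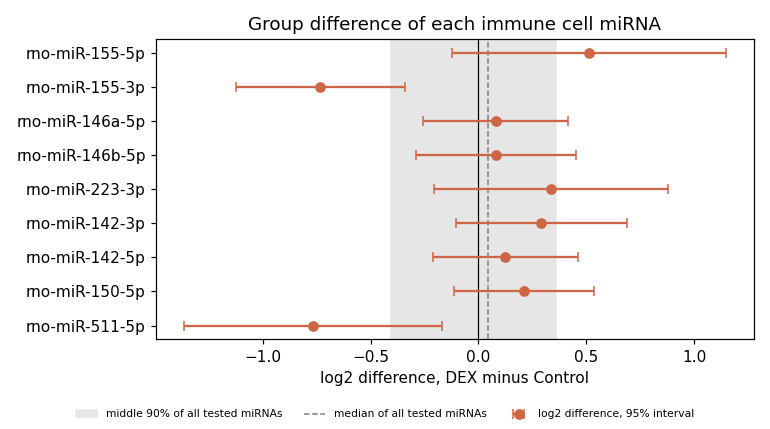
Log2 difference of each immune cell miRNA (DEX minus Control, horizontal axis) with its 95% interval from limma, over a band that holds the middle 90% of the differences of all 503 tested miRNAs and a dashed line at their median, 0.044. The intervals of rno-miR-155-3p (-1.13 to -0.34) and rno-miR-511-5p (-1.37 to -0.17) leave out 0, before any adjustment for the number of miRNAs tested.

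The miRNAs with the largest differences in size were also the dimmest. Rno-miR-155-5p, rno-miR-155-3p and rno-miR-511-5p were among the dimmest 168 tested miRNAs, whose median SD within groups was 0.48 on the log2 scale, and the other 6 were among the brightest 168. The SD of rno-miR-155-3p was 0.29, which ranked 13 of these 168 from the lowest. The SDs of rno-miR-155-5p and rno-miR-511-5p were 0.54 and 0.50, close to that median.

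**Figure D5:**
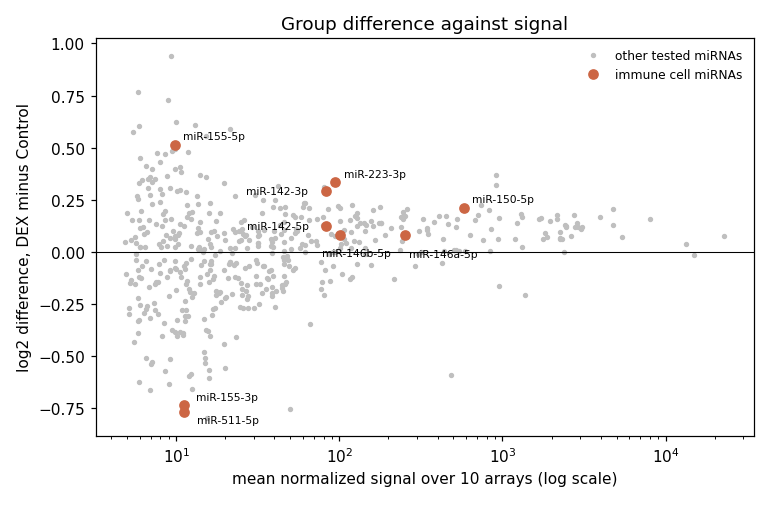
Log2 difference (DEX minus Control, vertical axis) against mean normalized signal over the 10 arrays (horizontal axis, log scale) for all 503 tested miRNAs, with the 9 immune cell miRNAs named. The differences spread more widely at low signal, where rno-miR-155-5p (0.51), rno-miR-155-3p (-0.73) and rno-miR-511-5p (-0.77) lie.

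Of the 5 opposite arms that the chip holds for the remaining hairpins, 2 were tested. Rno-miR-146a-3p and rno-miR-223-5p were detected on 0 of 10 arrays, and rno-miR-146b-3p was detected on 2 Control arrays and 1 DEX array. Rno-miR-150-3p was detected on 9 arrays, with a log2 difference of 0.15, and rno-miR-511-3p on all 10. Neither passed the test (limma adjusted p = 0.914 or more).

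A list of 16 other miRNAs with known roles in inflammation was examined beside the 9. Of these, 15 were tested, 14 were higher and 1 was lower in DEX, and the median log2 difference was 0.12. Over all 503 tested miRNAs, 298 were higher and the median was 0.044. All of them share the arrays' scaling, and without scaling the median of all tested miRNAs was -0.16. On slide 2, the only slide with both groups, the median log2 difference of all tested miRNAs was -0.19. There rno-miR-132-3p (0.33), rno-miR-203a-3p (0.29), rno-miR-21-5p (0.17) and rno-miR-29b-3p (0.015) were higher in DEX, and the others of the 15 were lower. None of the 15 passed the adjusted threshold. At an unadjusted p under 0.05, where 2.98% of all tested miRNAs were called, there was 1. That was rno-miR-132-3p, which is induced by CREB and in innate immune responses, with a log2 difference of 0.61 ± 0.24 (SE, limma unadjusted p = 0.0259, adjusted p = 0.905). Its spot was detected for 4 DEX rats and 2 Control rats, with the highest signals, 8.85 and 11.2, on slide 3. Next came rno-miR-21-5p, a miRNA that increases in many injured tissues, with 496 to 959 in Control and 649 to 1518 in DEX and a log2 difference of 0.37. Rno-miR-125b-5p, known to act on Tnf, followed with 0.16. At the lower end, rno-miR-187-3p, which IL-10 induces in monocytes, had -0.21, with 25 to 29.4 in Control and 22.5 to 26.1 in DEX. Rno-let-7i-5p, which acts on Tlr4, had 0.0060, and rno-miR-125a-5p had 0.0094. The adjusted limma p of these 5 was 0.905 or more. Rno-miR-147, known from macrophages after Toll-like receptor stimulation, was detected on 4 arrays and was not tested.

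Marker miRNAs of the cells and blood that a piece of ventricle can hold were summed on each array. The red cell list (3 of 4 detected) ran from 569 to 1033 in Control and from 353 to 1009 in DEX, and the groups overlapped. On log2 sums, the exact permutation test gave p = 0.151, adjusted over 9 array measures 0.714. In this list rno-miR-144-3p had a log2 difference of -0.75 and rno-miR-451-5p one of -0.59, while rno-miR-486 had 0.019, and rno-miR-144-5p was not detected. DEX 1 had the highest red cell sum of the DEX arrays and DEX 3 the lowest. Across the 10 arrays the red cell sum had a Pearson r of 0.47 with rno-miR-155-3p and of 0.19 with rno-miR-511-5p, and between -0.47 and 0.23 with the other 7, on the log2 scale. The part of residual blood in these differences was not tested. The labelled tissue carried its markers: all 6 heart muscle miRNAs were detected on every array, with a sum of 32202 to 46018 in Control and 31097 to 45001 in DEX. The endothelial sum was 4360 to 5783 and 4370 to 6739, the fibroblast sum 498 to 878 and 602 to 886, and the smooth muscle sum 2433 to 3711 and 2654 to 3857, each in Control and DEX in that order. The liver miRNA rno-miR-122-5p and the neuronal miRNA rno-miR-124-3p were each detected on 1 array, while the other arm of the liver miRNA, rno-miR-122-3p, was detected on all 10, with 6.39 to 16.1 and a log2 difference of -0.31 (limma adjusted p = 0.905).

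The miRNAs whose log2 signal followed each of the 9 most closely over the 10 arrays were then identified. All points share the arrays' scaling and depth, and the values are a description. Rno-miR-155-3p was nearest to rno-miR-34b-3p, with a Pearson r of 0.90, or 0.66 after the group means were removed, and to rno-miR-1843a-5p, with 0.82 and 0.59. Rno-miR-155-5p was nearest to rno-miR-29a-3p, with 0.88 and 0.85, and to rno-miR-29b-3p, with 0.87 and 0.84. The arms of miR-155 thus had different neighbours, and between themselves their r was -0.36, or 0.042 after the group means were removed.

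Both miR-146 miRNAs were close to an arm of the endothelial miR-126a. Rno-miR-146a-5p was nearest to rno-miR-126a-3p (r = 0.89) and to rno-miR-335 (0.88). Rno-miR-146b-5p was nearest to rno-miR-29b-3p (0.90) and to rno-miR-126a-5p (0.90). Rno-miR-223-3p was nearest to rno-miR-17-5p (0.92) and rno-miR-21-5p (0.91), and rno-miR-142-5p to rno-miR-19a-3p (0.91) and rno-miR-21-5p (0.88). For rno-miR-142-3p they were rno-miR-25-5p (0.79) and rno-miR-101a-3p (0.75), for rno-miR-150-5p rno-miR-30c-5p (0.94) and rno-miR-99a-5p (0.91), and for rno-miR-511-5p rno-miR-122-3p (0.89) and rno-miR-26b-3p (0.85). After the group means were removed, r in these pairs was 0.67 or more.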

How the data were processed

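Total RNA of the left ventricle was labelled with Cy5 and hybridized to a 3D-Gene rat miRNA chip. Per the file headers, the deposited scanner values are spot intensities on a linear scale, with no background removed. The authors' value table holds a whole-number score per miRNA and array. It was reproduced as blank-subtracted intensity, scaled per array to a median of 25 over the 405 miRNAs detected on all arrays. This rule came within 0.51 for 99.8% of 5038 scores. A miRNA with a score counted as detected. The miRBase release and the scanner software's version were not given in the sources used here. The labels and the methods name different RNA extraction kits.

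The trimmed mean of 1664 blank spots was subtracted, each array was scaled to a median of 25 over its detected miRNAs, undetected spots were set to the floor, 4 spots marked bad were left missing, and log2 was taken. This scaling used each array's own detected miRNAs, where the scores used those detected on all arrays. A miRNA was tested where 5 or more arrays detected it, which left 503. These were fitted in R 4.3.3 by limma 3.58.1 (eBayes after lmFit, Benjamini-Hochberg adjustment, threshold 0.05, two-sided), and arm differences likewise. Exact permutation tests compared group means of log2 signals and were two-sided over 252 splits. The code was tested on simulated data. Figures used matplotlib 3.10.9 in Python 3.11.15. The number of unused sample columns was 0.

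The members and lists were chosen with earlier results of these data known. Named were all 9 miRNAs, their opposite arms, the 3 highest and 3 lowest of the inflammation list and any past the threshold, and the 2 nearest neighbours of each. Alternatives covered background correction, scaling, detection, floor, model, slide, replicate number, the value table, the methods' t-test and leaving out arrays; leaving out DEX 1 with Control 5 was chosen after seeing the data.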

Additional observations from a re-analysis of the deposited data

Results flagged for a closer look

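A single array far from the rest of its group was looked for in 42 groups of 5 values and found in 3, and about 2.1 are expected by chance. Rno-miR-223-3p was low on Control 3, whose gap to the nearest Control array was 0.757 of the group's range on the log2 scale, above the critical value of 0.71. The 3p minus 5p value of miR-142 was low on DEX 1, with a gap of 0.722 of the range. The median signal over blank before scaling was low on DEX 1, with a gap of 0.809 of the range.

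Probe-free spots, which were used only as an array measure, were brighter on both arrays of slide 3 than on any other array. Their median over blank was 37.7 for DEX 4, 28.8 for DEX 5 and 6.62 to 10.2 for the Control arrays. On DEX 1, DEX 2 and DEX 3 it was -0.80, 5.67 and 5.43. Without slide 3 the log2 difference of rno-miR-155-3p was -0.63 (limma unadjusted p = 0.0141, adjusted p = 0.7102) and that of rno-miR-511-5p was -0.68 (limma unadjusted p = 0.0719, adjusted p = 0.991).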

How the results depend on the processing

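None of the 503 miRNAs, the 9 included, passed the adjusted threshold under any of 28 alternatives (smallest adjusted p 0.0608 to 0.997). Rno-miR-155-3p kept its sign in all 28, between -0.94 and -0.064, and its unadjusted p was under 0.05 in 24. The number of the 9 at an unadjusted p under 0.05, 2 as reported, was 0 with normexp, without background correction, with slide as a fixed term and on slide 2 alone, and 1 with quantile scaling. It was 3 with the value table and with scaling on miRNAs detected on all arrays, settings that share their scaling. Leaving out 1 array gave 2 to 3. The number of hairpins whose arm difference passed was 1 (rno-miR-33) with slide as a fixed term, and 0 to 1 when 1 array was left out (rno-miR-34b without DEX 3). Signs turned for rno-miR-142-5p with normexp (-0.0031) and without scaling (-0.080). Rno-miR-146a-5p turned without background correction (-0.0074), without scaling (-0.13) and with quantile scaling (-0.0033), and it ran from -0.017 to 0.15 when 1 array was left out. Rno-miR-146b-5p turned without scaling (-0.12) and within slides (-0.18), and ran from -0.0092 to 0.17 when 1 array was left out. Within slides rno-miR-150-5p turned to -0.086, rno-miR-511-5p to 0.33 and the arm difference of miR-511 to -0.96, which ran from 0.60 to 1.26 when 1 array was left out. The arm difference of miR-150 turned with quantile scaling (0.11), with the floor only at or below 0 (0.016), without slide 3 (0.023) and without DEX 1 and Control 5 (0.19), and it ran from -0.25 to 0.078 when 1 array was left out. The cause was not tested. Leaving out the scaling moved the median of all tested miRNAs to -0.16, and the fixed slide term moved it to -0.19. Deviations of same-numbered arrays correlated at -0.080 to 0.11, which shows no pairing by number but cannot exclude one. The replicate block gave 35 unadjusted calls in place of 15 and 0 adjusted, and the log2 difference of rno-miR-155-3p was -0.73 with the block (limma adjusted p = 0.274). Counts of unadjusted calls over all tested miRNAs ran from 7 without background correction to 36 without Control 5. The value table gave 30, and scaling on miRNAs detected on all arrays gave 31. Dim spots limit rno-miR-155-5p, rno-miR-155-3p and rno-miR-511-5p.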

Other observations

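The immune cell miRNAs did not vary as one block over the 10 arrays. On the log2 scale, rno-miR-142-5p had a Pearson r of 0.85 with rno-miR-155-5p, 0.84 with rno-miR-223-3p, 0.77 with rno-miR-146b-5p and 0.69 with the other arm of its hairpin, rno-miR-142-3p. The pair with a shared seed, rno-miR-146a-5p and rno-miR-146b-5p, had 0.67. The lymphocyte miRNA rno-miR-150-5p had -0.065 with rno-miR-142-3p and -0.77 with rno-miR-511-5p. With the group means removed, the last was -0.67. All these values share the arrays' scaling, and the r with the array's unscaled median signal was -0.82 for rno-miR-146a-5p, -0.71 for rno-miR-150-5p and -0.71 for rno-miR-155-5p.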
